A study of Homo sapiens with 9 samples.

Results

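A group of 72 mesoderm-like cells that combined *HAND1* with glycophorin genes was examined in human extra-embryoids (hEEs), where it made up 0.713% of the 10097 cells kept at day 6 (D6), with an exact 95% binomial interval from 0.558 to 0.897. At day 4 (D4) 2 of 9151 kept cells met the same rule, which is 0.0219% [0.00265, 0.0789]. A cell belonged to the group when it held at least 2 unique molecular identifiers (UMIs, each a counted transcript) of *HAND1* and at least 2 of *GYPE*, *GYPB* and *RIPPLY1* summed, so these 4 genes describe how the cells were chosen and are not findings about them. The cells are called *HAND1* glycophorin cells here.

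hEEs are three-dimensional structures that self-organize from human pluripotent stem cells, here the embryonic stem cell line ESI017, into an epiblast-like inside and a hypoblast-like outside. The stem cells were kept on mouse feeder cells in EP conditions, which hold a state between ground and primed pluripotency, aggregated in microwells in spontaneous differentiation medium with the ROCK inhibitor Y27632 for the first day, and moved to mIVC2 medium from the third day. Structures with an inner and an outer compartment were collected, wells were pooled before dissociation, and single cells were profiled by droplet sequencing of transcript 3′ ends. There was 1 library for D4 and 1 for D6, so the days carry no replicate, no test between groups could be run, and every interval given is an exact 95% interval for counting error alone. The structures come from 1 cell line, and their outer layer took longer to dissociate, so the share of cells in a library need not equal the share in a structure.

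The D4 library held 151712246 UMIs in 10943 barcodes and the D6 library 150320228 UMIs in 11483 barcodes. Kept cells had a median depth of 12717 UMIs at D4 and 12960 at D6. The 72 cells of D6 together held 993418 UMIs, with 5660 in the shallowest cell, a median of 12786.5, and 26501 in the deepest. Of all barcodes 40 occurred in both libraries, 27 of them among kept cells, and 0 of the 72 cells shared a barcode with a kept cell of D4. The mitochondrial share was a median of 3.51% in the 72 cells, 3.36% in *HAND1* cells without the other 3 genes and 2.74% in *TBXT* cells, and 1.93% and 2.08% in *POU5F1* *SOX2* and *FN1* cells, and its part in the differences was not tested.

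Mesoderm is the germ layer that forms when cells of the epiblast leave the epithelium at the primitive streak, lose E-cadherin and take on a mesenchymal shape. *EOMES*, *MIXL1* and the paired factors *MESP1* and *MESP2* mark this exit, and *HAND1*, a basic helix-loop-helix factor, marks the lateral, cardiac and extra-embryonic mesoderm that follows. In primates extra-embryonic mesoderm lines the yolk sac and amnion early, and the first blood cells arise in the yolk sac. Glycophorins are sialic acid-rich proteins of the red cell membrane, and *RIPPLY1* encodes a co-repressor that binds T-box factors during segmentation.

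The comparison groups were also set by UMI thresholds. *POU5F1* *SOX2* cells had at least 5 UMIs of *POU5F1*, at least 1 of *SOX2* and at most 2 of *FN1*, which gave 5052 epiblast-like cells at D6. *FN1* cells had at least 3 UMIs of *FN1*, no *SOX2* or *HAND1* and at most 5 *POU5F1*, which gave 3500 hypoblast-like cells. These labels were checked against genes outside the thresholds, and *APOA1*, an apolipoprotein of yolk sac endoderm, was at 89.7 CPM (counts per 1e6, the UMIs of a gene summed over the cells of a group and divided by all UMIs of that group) in *POU5F1* *SOX2* cells and 12134 in *FN1* cells. *NANOG*, a pluripotency factor, was at 63.8 CPM in the former and 13.2 in the latter. A further pair of groups was set by single mesoderm genes, namely 48 cells with *HAND1* but none of the other 3 genes, and 168 cells with a UMI of *TBXT* (brachyury, the streak factor) and none of *HAND1*.

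At D6, 127 kept cells had at least 2 *HAND1* UMIs, and 72 of them, 56.7% [47.6, 65.5], also passed the threshold on the other 3 genes. At D4 these numbers were 2 of 16 cells, or 12.5% [1.55, 38.3]. The D6 share of kept cells was 32.6-fold [8.71, 275] that of D4, with a log2 ratio of 5.03 [3.12, 8.10], where the lower group rests on 2 cells. With 1 library per day, day and library cannot be told apart.

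**Figure D1:**
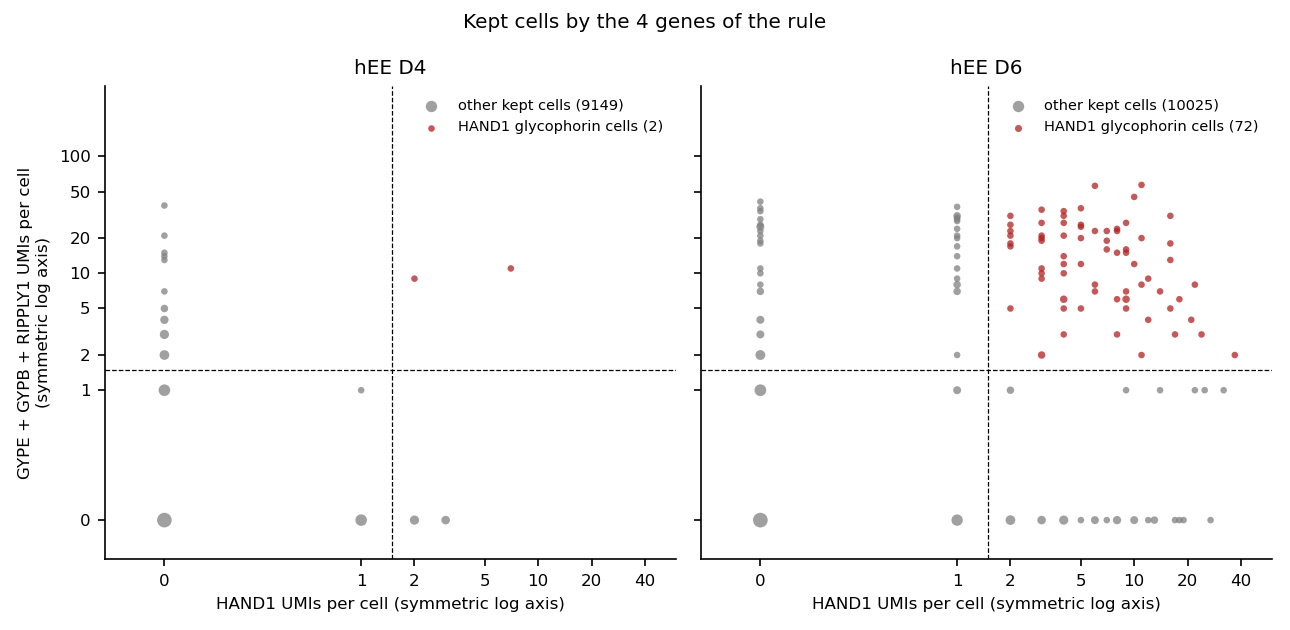
Kept cells of hEE D4 (left) and D6 (right) by *HAND1* UMIs per cell (x axis) and the summed UMIs of *GYPE*, *GYPB* and *RIPPLY1* per cell (y axis), both on symmetric log axes, with larger points for positions that hold more cells. The chosen cells occupy the upper right corner, 72 at D6 and 2 at D4.

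The 4 genes that chose the cells were present at the following levels. *HAND1* (ENSG00000113196, chr5:154474972-154478227, minus strand) had 2 UMIs in the lowest cell, a median of 6 and 37 in the highest, a level of 575 CPM [529, 624]. *GYPB* (ENSG00000250361), which carries the S and s blood group antigens, ranged from 0 over a median of 6 to 24 UMIs and was counted in 68 of the 72 cells, at 547 CPM [502, 595]. *GYPE* (ENSG00000197465) had 0, 3 and 19 UMIs as lowest, median and highest, in 62 cells, at 268 CPM [237, 302]. *RIPPLY1* (ENSG00000147223, chrX:106900063-106903341) was counted in 41 cells, with a median of 1 UMI and up to 50 in a single cell, at 345 CPM [310, 384]. The glycophorin pair thus chose most cells, and *RIPPLY1* was spread far less evenly.

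*GYPB* and *GYPE* were counted together in 59 cells, *GYPB* alone in 9, *GYPE* alone in 3 and neither in 1. They lie next to each other on the minus strand of chromosome 4, *GYPE* at chr4:143870864-143905559 and *GYPB* at chr4:143995188-144019380 (GRCh38.p14). Windows of 250 bases at a listed start of both genes are shown in RefSeq's sequence to let the near-copies be compared, together with the window of *RIPPLY1*. For *GYPB* the last promoter listed was taken and for the other genes the first. What is said of these windows therefore need not hold for any other listed start, which was not compared. The *GYPB* window runs from 144019346 and so overlaps the gene range given above, which ends at 144019380. Distances in it are therefore counted from the end of the window as printed. Capitals mark AGATAA in the glycophorin genes, the core that GATA factors bind, and TCACACC in *RIPPLY1*, the reverse strand of the T-box core GGTGTGA.
GYPB, chr4:144019346-144019595, minus strand: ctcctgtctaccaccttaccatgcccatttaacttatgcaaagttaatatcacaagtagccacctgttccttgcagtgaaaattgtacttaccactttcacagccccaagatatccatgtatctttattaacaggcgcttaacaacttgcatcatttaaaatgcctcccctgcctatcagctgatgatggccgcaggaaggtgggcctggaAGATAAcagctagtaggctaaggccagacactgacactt
GYPE, chr4:143905560-143905809, minus strand: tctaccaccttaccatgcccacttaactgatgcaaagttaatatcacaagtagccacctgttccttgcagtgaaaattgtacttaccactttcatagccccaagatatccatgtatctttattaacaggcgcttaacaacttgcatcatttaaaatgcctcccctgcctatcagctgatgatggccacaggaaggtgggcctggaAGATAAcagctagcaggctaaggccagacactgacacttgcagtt
RIPPLY1, chrX:106903342-106903591, minus strand: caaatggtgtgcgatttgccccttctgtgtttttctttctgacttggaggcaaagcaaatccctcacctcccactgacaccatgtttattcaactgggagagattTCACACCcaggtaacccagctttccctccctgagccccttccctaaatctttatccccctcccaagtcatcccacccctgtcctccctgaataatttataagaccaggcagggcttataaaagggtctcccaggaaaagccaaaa

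The windows of *GYPB* and *GYPE* were identical at 239 of 244 aligned bases (98.0%). Each held 1 AGATAA, which began 39 bases before the end of the *GYPB* window as printed and 45 before that of *GYPE*. On either strand AGATAA or TGATAA (reverse TTATCT or TTATCA) occurred in promoter windows of the same length for 4770 of 27305 genes, or 17.5%. GGTGTGA or TCACACC did so for 923 genes, or 3.38%. A gene was counted when any of its listed windows held a match, so these are not shares of single windows. The window of *HAND1* held neither motif. A match describes the letters of a window and not a bound site.

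Reads of such close copies may be assigned uncertainly. Over the last 600 bases of the protein-coding transcripts, 0 of 764 stretches of 90 bases in *GYPB* occurred exactly in *GYPE*, and 0 of 921 stretches of *GYPE* in *GYPB*. However, 76 of the 764 stretches of *GYPB* (9.95%) occurred exactly in another glycophorin gene of chromosome 4. Alignment that tolerates mismatches was not tested, so the split of reads between *GYPB* and *GYPE* is uncertain.

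*GYPC*, a glycophorin from chromosome 2 that is unrelated in sequence, anchors the membrane skeleton and was not used to choose the cells, gave another picture. It was counted in 31 of the 72 cells and was at 57.4 CPM [43.5, 74.3] in the 72 cells and 57.0 CPM [40.7, 77.6] in the *HAND1* cells without the other 3 genes, with a log2 ratio of 0.01 [-0.60, 0.63]. Levels were lower in *POU5F1* *SOX2* cells (16.1 CPM), *FN1* cells (6.20 CPM) and *TBXT* cells (9.50 CPM). The summed *GYPC* level was thus alike in these *HAND1* cells with and without the other 3 genes. The latter level rests on 40 UMIs in a group of mixed kinds of cells, described below. Whether *GYPC* goes with *HAND1* from cell to cell was not tested.

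Cells just inside and just outside the thresholds shared part of the profile. The 7 cells with exactly 2 *HAND1* UMIs had *MESP1* at 341 CPM and *CER1* at 3365 CPM. The 18 cells with 1 *HAND1* UMI that passed the 3-gene threshold, and so were left out, had *GYPB* at 990 CPM, *CER1* at 3347, *LHX1* at 940, *HAPLN1* at 1126 and *VIM* at 2925, but *MESP1* at 85.4. In the 41 cells with no *HAND1* that passed the 3-gene threshold, *GYPB* was at 553 CPM, *CER1* at 1243, *MESP1* at 40.2 and *APOA1* at 3030. At the other edge, the 4 chosen cells with a sum of exactly 2 had *HAND1* at 899 CPM, *CER1* at 0 and *APOA1* at 3678. Among these 4, 1 cell called a doublet held 37 UMIs of *HAND1* and 119 of *APOA1*. The 7 cells with a sum of 1, left out, had *HAND1* at 968 CPM, *HAPLN1* at 1150, *CER1* at 137 and *APOA1* at 2090. The threshold on *HAND1* therefore left out cells rich in glycophorin and *CER1*, and the threshold on the sum left out cells rich in *HAND1* and *HAPLN1*.

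Against *POU5F1* *SOX2* cells, the epiblast-like state, the 72 cells were higher in the streak exit and mesoderm genes named below. They were lower in most of the pluripotency genes compared and in E-cadherin. Of 9622 genes that reached 10 CPM in either group and were used neither by the rule nor by the cell filter, 1153 (12.0%) were at least 2-fold higher and 917 (9.53%) at least 2-fold lower, with a median log2 ratio of 0.05. A gene that reached this floor through 1 of the groups alone was bound to differ, so the counts of list genes given here and in the comparisons that follow are descriptions and support no direction. A list of 25 genes of nascent mesoderm and streak summed to 2466 CPM against 53.1. Its most abundant gene in *POU5F1* *SOX2* cells was *DLL3* at 10.5 CPM, so that the other genes of the list that were compared reached the floor through the 72 cells, and the values are given for single genes. *MSGN1*, *FGF4*, *WNT3A*, *CDX1*, *CDX2* and *CDX4* were at 0 in the 72 cells.

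*MESP1* (ENSG00000166823, chr15:89732446-89751249), which directs nascent mesoderm towards the heart and anterior mesoderm, had UMIs in 55 of the 72 cells, from 0 over a median of 2 to 13. Its level was 220 CPM [192, 252] against 1.74 in *POU5F1* *SOX2* cells, with a log2 ratio of 6.99 [6.67, 7.31]. Its neighbour *MESP2*, a segmentation factor, was at 45.3 CPM against 1.23. *MIXL1*, a homeobox factor of the streak, was at 274 CPM against 3.06, and *EOMES*, a T-box factor that opens the mesendoderm programme, at 285 against 3.81. *APLNR*, a receptor that guides migrating mesoderm, was at 268 CPM against 0.481. All of these streak exit genes were therefore well above the epiblast-like level, although *TBXT*, the classical streak factor, had only 3 UMIs in 2 of the 72 cells, 3.02 CPM.

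Segmentation genes, the group to which *RIPPLY1* belongs, were present only in part. The 15 such genes not used by the rule summed to 191 CPM against 65.9 in *POU5F1* *SOX2* cells and 60.8 in *FN1* cells. In *HAND1* cells without the other 3 genes the same genes summed to 332 CPM. *FOXC1*, a forkhead factor of paraxial mesoderm, was at 55.4 CPM against 0.414 in *POU5F1* *SOX2* cells. *RIPPLY2*, *HES7*, *MEOX1*, *TBX18*, *UNCX* and *PAX3* were at 0 in the 72 cells.

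*LHX1* (ENSG00000273706, chr17:36936785-36944612), a LIM homeobox factor of anterior mesendoderm, was counted in 68 of the 72 cells with a median of 8 and up to 47 UMIs. It stood at 802 CPM [748, 860] against 1.66, with a log2 ratio of 8.92 [8.64, 9.20]. In *FN1* cells *LHX1* was at 133 CPM and in *TBXT* cells at 83.5. *CER1*, a secreted antagonist of NODAL, BMP and WNT, was less even, with a median of 3.5 and up to 150 UMIs, and was counted in 46 cells. Its level was 1077 CPM [1014, 1144] against 4.09, with a log2 ratio of 8.04 [7.86, 8.23]. *DKK1*, a WNT antagonist, was at 310 CPM [276, 347] against 1.30, also in 46 cells. Other secreted antagonists differed in both directions, with *SFRP2* at 41.3 CPM against 436 and *FST* at 874 against 52.6. *LEFTY1*, at 6.04 against 9.84 CPM, did not differ beyond counting error.

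In a list of 31 genes of lateral plate, cardiac and extra-embryonic mesoderm other than *HAND1*, the summed level was 2388 CPM against 64.6 in *POU5F1* *SOX2* cells, where the most abundant was *HAS2*. *HAS2*, the enzyme that makes hyaluronan, was counted in 71 cells at 928 CPM against 11.2. *HAPLN1*, which links hyaluronan to proteoglycans, was counted in 60 cells with a median of 6 and up to 41 UMIs, at 702 CPM [650, 756] against 0.976, with a log2 ratio of 9.49 [9.14, 9.86]. *LUM*, a small collagen-binding proteoglycan, was restricted to 16 cells, at 81.5 CPM against 1 UMI in all *POU5F1* *SOX2* cells, with a log2 ratio of 12.57 [10.06, 17.90]. Beside these matrix genes *MSX1*, a homeobox factor of mesenchyme, was at 173 CPM against 0.588.

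*MYL7* and *MYL4* encode myosin light chains of the embryonic heart. *MYL7*, the atrial regulatory light chain, was at 320 CPM against 2.61, and *MYL4*, the atrial essential light chain, at 273 against 1.00. In *FN1* cells *MYL4* was at 59.8 CPM. *GATA6*, a zinc finger factor shared by mesoderm and endoderm, was counted in 69 cells at 271 CPM against 2.83, and *GATA4* was at 56.4 CPM against 1.04. *TBX5*, *PRRX1*, *NR2F2*, *COL6A3* and *POSTN*, genes of later lateral plate and fibroblast-like cells, were at 0 in the 72 cells.

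*CDH1* and *VIM* differed in opposite directions, while keratins did not follow E-cadherin. The 18 genes on the mesenchymal side of the transition summed to 4846 CPM against 764, and of the 16 that reached the floor 14 were higher and 0 lower. *VIM* (chr10:17228241-17237593), the intermediate filament of mesenchyme, was in every cell with 5 to 159 UMIs and a median of 39.5, at 3269 CPM [3157, 3383] against 518, with a log2 ratio of 2.66 [2.61, 2.71]. *COL5A2*, a fibrillar collagen chain, was at 475 CPM against 6.83, and *CDH11*, a mesenchymal cadherin, at 178 against 2.45. *SNAI2* and *ZEB2*, repressors of epithelial genes, were at 25.2 against 0.227 and 44.3 against 1.19 CPM, and *SNAI1* at 16.1 against 4.17.

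Of 18 genes on the epithelial side, 15 reached the floor, of which 7 were lower and 3 higher, with a median log2 ratio of -0.75. *CDH1*, E-cadherin, had 8 UMIs in 7 of the 72 cells, 8.05 CPM [3.48, 15.9] against 89.9, with a log2 ratio of -3.48 [-4.69, -2.50]. *EPCAM*, an epithelial adhesion molecule, was at 118 CPM against 377, and *CLDN3*, *CLDN6*, *CLDN7*, *OCLN* and *ESRP1* were lower too. The 3 higher genes were the simple epithelial keratins *KRT8*, at 1848 CPM against 368, *KRT18*, at 1471 against 559, and *KRT19*, at 4861 against 262. *KRT19* was counted in every cell, from 4 over a median of 57 to 184 UMIs, so that the cells carried abundant keratin and vimentin transcripts together.

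**Figure D2:**
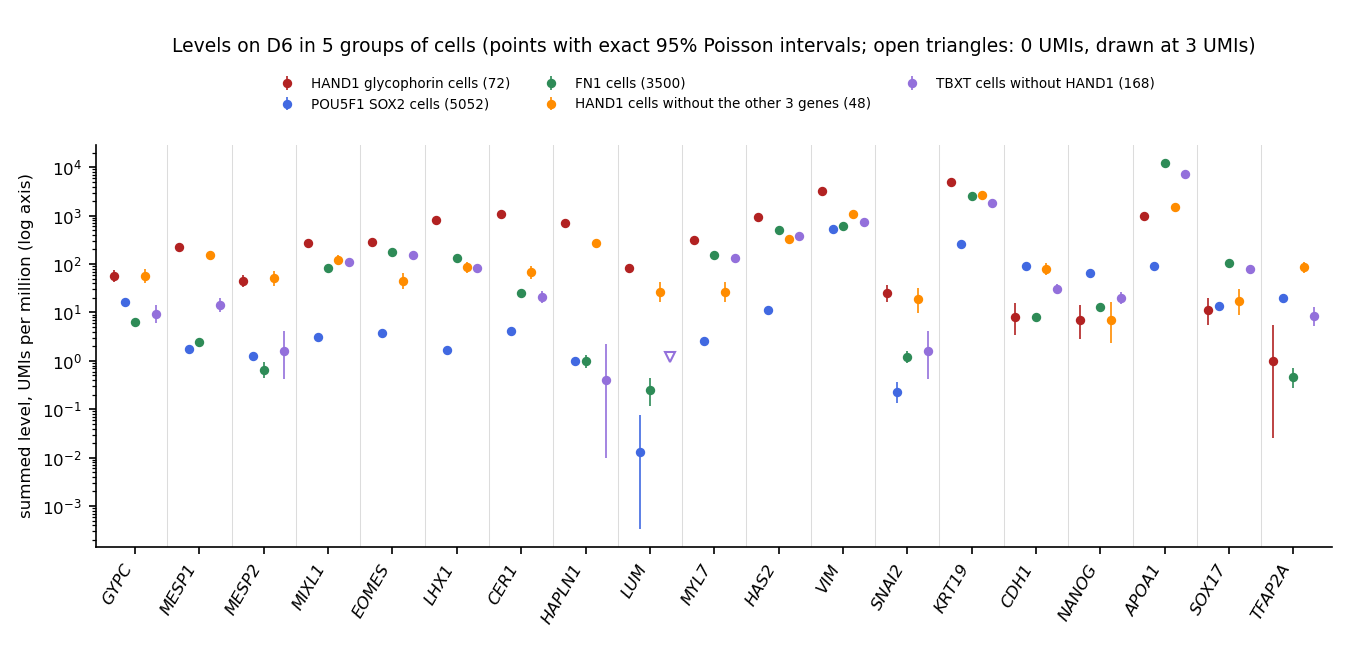
Summed level in CPM (y axis, log scale) of the named genes (x axis) in the 72 *HAND1* glycophorin cells and the 4 comparison groups of D6, with points for the level and bars for the exact 95% Poisson interval; open triangles mark genes with 0 UMIs, drawn at 3 UMIs. *MESP1*, *LHX1* and *CER1* stood at 220, 802 and 1077 CPM in the 72 cells and between 1.66 and 4.09 in *POU5F1* *SOX2* cells, and *CDH1* went the other way, at 8.05 against 89.9.

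The 21 pluripotency genes other than *POU5F1* and *SOX2* summed to 1994 CPM in the 72 cells against 5155. Of the 20 that reached the floor 12 were lower and 2, *OTX2* among them, higher. *UTF1*, a chromatin factor of primed cells, was at 4.03 CPM against 75.4, and *NANOG* at 7.05 against 63.8. *ESRG*, a long non-coding RNA of pluripotent cells, was at 57.4 CPM against 572, and *SFRP2*, a WNT antagonist of the epiblast, at 41.3 against 436. *POU5F1* and *SOX2* themselves were selected on in the comparison group and were at 104 and 21.1 CPM in the 72 cells.

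Against *FN1* cells, the hypoblast-like state, *MESP1* and *CER1* were again higher, and *APOA1*, *APOA2*, *CST1*, *CST2* and *CST4* were lower. Of 16 mesenchymal genes at the floor, 12 were higher and 1 lower. Of 9469 genes compared, 847 (8.94%) were at least 2-fold higher and 887 (9.37%) lower, with a median log2 ratio of 0.10. *MESP1* was at 220 CPM against 2.43, with a log2 ratio of 6.51 [6.16, 6.86], and *CER1* at 1077 against 24.7, with a log2 ratio of 5.44 [5.32, 5.57]. *HAPLN1* ranked highest by the lower end of its interval among genes above 50 CPM, with a log2 ratio of 9.48 [9.02, 9.98], and *VIM* was at 3269 against 611 CPM. Of the nascent mesoderm list 16 genes reached the floor, with 10 higher, 3 lower and a median log2 ratio of 2.09. The 3 lower genes were *FGF17*, *SP5* and *GSC*.

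Several genes that separated the cells from epiblast-like cells did so little from *FN1* cells. *EOMES* was at 285 CPM against 175, with a log2 ratio of 0.70 [0.53, 0.88], and *HAS2* at 928 against 494. *GATA6* did not differ beyond counting error, at 271 against 299 CPM, with a log2 ratio of -0.14 [-0.32, 0.03], and *GATA4* was at 56.4 against 88.5. Of the 19 lateral plate, cardiac and extra-embryonic mesoderm genes that reached the floor here, 8 were higher and 3 lower, with a median log2 ratio of -0.14. The higher genes of that list were *BMP4*, *PDGFRB*, *KDR*, *MSX1*, *LUM*, *MEIS2*, *TNNT2* and *MYL7*, and the lower ones *GATA5*, *PDGFRA* and *PITX1*. Without 10 cells that also carried hypoblast or epiblast genes, 10 of 20 were higher and 3 lower. The median log2 ratio was then 0.48, so its sign turned.

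Among 33 hypoblast and yolk sac endoderm genes that reached the floor, 27 were lower and 2, *CER1* and *BMP2*, were higher, with a median log2 ratio of -2.51. The summed level of that list was 6239 CPM in the 72 cells, 27775 in *FN1* cells and 1518 in *POU5F1* *SOX2* cells. *APOA1* was at 981 CPM against 12134, *APOA2* at 57.4 against 1197 and *HP*, haptoglobin, at 1.01 against 71.3. Without 10 cells that also carried hypoblast or epiblast genes, *APOA1* was at 100 CPM, but *APOA1* was itself used to choose those cells. The endoderm factors *SOX17* and *FOXA2* were each at 11.1 CPM against 103 and 147. Of the 16 epithelial genes that reached the floor, 13 were lower and 0 higher, and of the 16 mesenchymal genes 12 were higher and 1 lower, which was *CDH2*. N-cadherin (*CDH2*) was thus at 169 CPM in the 72 cells, between *POU5F1* *SOX2* cells at 20.1 and *FN1* cells at 419.

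**Figure D3:**
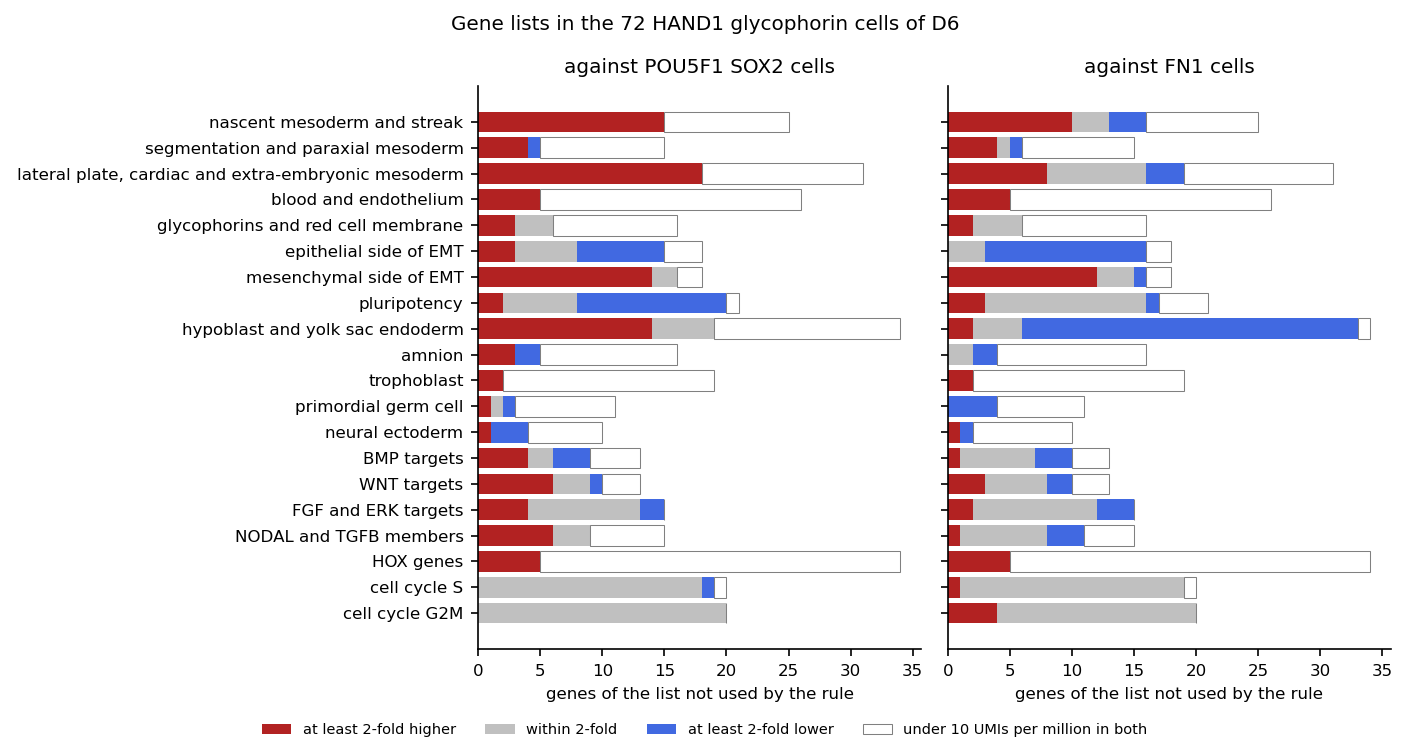
Genes of each list that were not used by the rule (x axis, number of genes), as higher, lower or within 2-fold in the 72 cells of D6, or under 10 CPM in both groups, against *POU5F1* *SOX2* cells and against *FN1* cells. Against *POU5F1* *SOX2* cells 12 of 20 pluripotency genes were lower and against *FN1* cells 27 of 33 hypoblast genes were, but a gene can reach the floor through 1 group alone, so the bars describe and do not test.

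Blood and endothelial genes were largely absent even though the cells were chosen on red cell membrane genes. Of 26 genes in that list, 18 were at 0 in the 72 cells, among them *TAL1*, *GATA1*, *PECAM1*, *CDH5*, *SPI1* and all the globins listed. No UMI of *TAL1* among 993418 allows a level of up to 3.02 CPM. The list summed to 86.6 CPM against 24.3 in *POU5F1* *SOX2* cells and 17.9 in *FN1* cells. The 5 genes at 10 CPM or more in the 72 cells were *KDR*, *ETV2*, *GATA2*, *KLF1* and *SOX18*, and *GATA2* rested on 10 UMIs in 5 cells. *KDR*, a VEGF receptor of haemangioblasts and endothelium, was at 35.2 CPM against 11.2 and 1.67, and *KLF1*, an erythroid zinc finger factor, had 11 UMIs, 11.1 CPM against 0.602 and 0.368.

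The rest of the red cell membrane list was present in part, with a sum of 210 CPM against 105 in *POU5F1* *SOX2*, 89.3 in *FN1*, 151 in the other *HAND1* and 87.8 in *TBXT* cells. Of 16 genes other than those of the rule, 7 were at 0, among them *RHAG*, *RHCE*, *RHD*, *ANK1*, *EPB42* and *SLC4A1*. Of the 6 that reached the floor, 3 were higher than in *POU5F1* *SOX2* cells, *GYPC* and *KEL* among them, and *KEL* was at 18.1 CPM against 1.66. Band 3 (*SLC4A1*), the 3 Rh genes named and the listed globins were thus at 0 in cells with glycophorin transcripts.

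*HDC*, histidine decarboxylase, which makes histamine, was counted in 41 of the 72 cells at 92.6 CPM, with 8 UMIs in all *POU5F1* *SOX2* cells, 10 in all *FN1* cells and 0 in the other groups. *WNT4* was at 114 CPM against 1.23 and 0.515, and *WNT9B* at 65.4 against 0.187 and 0.221. *NRP2*, a co-receptor for semaphorins and VEGF-C, was at 182 CPM against 0.981 in *FN1* cells. These genes were named for the size of their ratio, and they include ligands, a receptor and an enzyme that no list held.

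Genes of signalling pathways did not all point one way. *BMP4*, a ligand, was at 88.6 CPM [71.0, 109] against 8.81 in *POU5F1* *SOX2* cells and 13.1 in *FN1* cells. Among 9 BMP target genes at the floor, *SMAD6*, *BAMBI*, *MSX1* and *MSX2* were higher and *ID1*, *ID3* and *ID4* lower than in *POU5F1* *SOX2* cells. *ID1*, an inhibitor of helix-loop-helix factors, was counted in 33 of the 72 cells at 245 CPM [215, 277], against 1042 in *POU5F1* *SOX2* cells, 1413 in *FN1* cells, 1885 in *HAND1* cells without the other 3 genes and 1109 in *TBXT* cells. *ID3* was at 258 CPM against 701, 737, 755 and 706 in the same order. *ID1* and *ID3* were thus lower in the 72 cells than in every comparison group, with a log2 ratio of *ID1* between -2.95 and -2.09. Most of the *ID1* UMIs came from the 10 cells that also carried hypoblast or epiblast genes. Without those cells the *ID1* level, given below, was lower still.

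NODAL and TGFβ pathway members were higher than in *POU5F1* *SOX2* cells for 6 of 9 genes at the floor, and 0 were lower. Against *FN1* cells 1 of 11 was higher and 3 were lower. *FST*, follistatin, an activin antagonist, was at 874 CPM against 52.6 and 646, and *NODAL* itself at 39.3 against 3.29 and 59.5. Of 10 WNT targets at the floor 6 were higher and 1 lower than in *POU5F1* *SOX2* cells, and 3 were higher and 2 lower than in *FN1* cells. For FGF and ERK targets these numbers were 4 and 2, then 2 and 3, of 15. Over all genes compared, 12.0% were higher and 9.53% lower than in *POU5F1* *SOX2* cells and 8.94% and 9.37% than in *FN1* cells, so that nothing is read from the FGF and ERK counts. The ligand *FGF8*, made at the streak, was at 38.3 CPM against 0.321 and 14.9.

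The HOX genes that were counted came from 1 end of the *HOXB* cluster. *HOXB2*, *HOXB3*, *HOXB4*, *HOXB5* and *HOXB6* were at 10 CPM or more in the 72 cells, *HOXB1* had 1 UMI, and the other 28 of 34 genes were at 0. *HOXB2* was at 54.4 CPM against 0.0535 in *POU5F1* *SOX2* cells and 1.42 in *FN1* cells.

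Of 16 amnion genes 9 were at 0 in the 72 cells, including *ISL1* and *GABRP*, and *TFAP2A* had 1 UMI. Of the 5 at the floor against *POU5F1* *SOX2* cells, *GATA3*, *MSX2* and *BAMBI* were higher and *TFAP2A* and *CLDN10* lower, and the list summed to 386 CPM against 180. Against *FN1* cells 0 of 4 were higher and 2 lower. Of 19 trophoblast genes 14 were at 0, and the 2 that reached the floor were *GATA2*, which the blood list also holds, and *PGF*. Of 11 germ cell genes 3 reached the floor against *POU5F1* *SOX2* cells, with 1 higher and 1 lower. Of 10 neural genes 4 did, with 1 higher and 3 lower. The 20 S phase genes summed to 1559 CPM against 1844 in *POU5F1* *SOX2* cells and 986 in *FN1* cells, and the 20 G2M genes to 2964 against 2792 and 1852.

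The 48 *HAND1* cells without the other 3 genes included cells with amnion genes and cells with epiblast genes. At least 5 *POU5F1* UMIs together with *SOX2* were held by 14 of the 48 (29.2%), against 4 of the 72 (5.56%). Of the 48 cells 25 (52.1%) had a UMI of *TFAP2A* or *ISL1*, against 1 of the 72 (1.39%), and 12 (25.0%) had a UMI of *MESP1*, against 55 (76.4%). Of 9522 genes compared, 936 (9.83%) were higher and 811 (8.52%) lower in the 72 cells, with a median log2 ratio of 0.04. Of 11 amnion genes at the floor 9 were lower and 0 higher, and of 18 lateral mesoderm genes 10 were higher and 0 lower. *ISL1*, a LIM homeobox factor of amnion and cardiac progenitors, was at 0 against 99.7 CPM, and *CLDN10*, a claudin, at 7.05 against 670. *CRH*, the corticotropin-releasing hormone, was at 0 against 161 CPM, but all 113 UMIs came from 1 cell.

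*MESP1* differed more in the share of cells that held it than in its summed level. It was at 220 against 154 CPM, where the 108 UMIs of the latter came from 12 cells, with a log2 ratio of 0.52 [0.18, 0.86], and *MESP2* at 45.3 against 51.3, with a log2 ratio of -0.18 [-0.84, 0.49]. *LHX1* was at 802 against 85.5 CPM, with a log2 ratio of 3.23 [2.85, 3.63], and *CER1* at 1077 against 67.0, with a log2 ratio of 4.01 [3.59, 4.46]. *DKK1* was at 310 CPM against 3 UMIs, with a log2 ratio of 6.18 [4.62, 8.47], *NPPB*, a natriuretic peptide, at 274 against 7.12 with 157 of its 272 UMIs in 1 cell, and *FST* at 874 against 64.1. Of 9 NODAL and TGFβ members 7 were higher and 0 lower, and of 11 BMP targets 1 was higher and 6 lower. *BMP4* was higher in the *HAND1* cells without the other 3 genes, at 172 CPM, with a log2 ratio of -0.96 [-1.37, -0.55].

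The *TBXT* cells of D6 were mostly hypoblast-like by their genes, since 121 of 168 (72.0%) had at least 10 *APOA1* UMIs. Of 9462 genes compared, 725 (7.66%) were higher and 773 (8.17%) lower in the 72 cells, with a median log2 ratio of 0.07. Of the nascent mesoderm list 16 genes reached the floor, with 10 higher and 2 lower, and of the hypoblast list 27 did, with 2 higher and 20 lower. *MESP1* was at 220 against 14.2 CPM, with a log2 ratio of 3.95 [3.44, 4.50], *EOMES* at 285 against 154 and *MIXL1* at 274 against 111. *HAPLN1* had 1 UMI in all 168 *TBXT* cells, with a log2 ratio of 10.79 [8.31, 16.10].

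A minority of the 72 cells carried genes of a second lineage. With at least 10 *APOA1* UMIs, which 7 cells had, or with the *POU5F1* and *SOX2* thresholds of the epiblast-like group, which 4 cells met, 10 cells were set aside as mixed, a division made after the values had been seen. They had 17834 to 26501 UMIs with a median of 22209, where the other 62 had a median of 12260.5. They held 898 of the 975 *APOA1* UMIs (92.1%) and 4 of the 5 cells that Scrublet called doublets. The 10 cells were chosen by *APOA1*, *POU5F1* and *SOX2*, so lower levels of these genes without them followed from the choice. Only the 72 cells were trimmed, and the comparison groups were left whole. Without the 10 cells *APOA1* was at 100 CPM, beside 89.7 in the untrimmed *POU5F1* *SOX2* cells. *POU5F1* was then at 23.4 CPM, *EPCAM* at 41.6, *CDH1* at 3.90 and *ID1* at 72.7, and *FOXA2*, *LEFTY1* and *NANOG* were at 0.

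These mesoderm genes were higher without the 10 cells. *MESP1* was at 249 CPM, *CER1* at 1265, *LHX1* at 919, *HAPLN1* at 766 and *VIM* at 3515. The nascent mesoderm list then summed to 2757 CPM, the lateral mesoderm list to 2518 and the mesenchymal list to 5248. Of the lateral mesoderm genes at the floor against *FN1* cells, 10 of 20 were higher, with a median log2 ratio of 0.48, where 10.6% of all genes compared were higher in this setting. *GATA2*, *HOXB5* and *GATA3* no longer reached the floor against *POU5F1* *SOX2* cells, and *GATA2* and *HOXB5* not against *FN1* cells. Against *POU5F1* *SOX2* cells 12.8% of all genes were higher and 10.8% lower without the 10 cells. On the epithelial side 10 genes were lower where 7 had been, and of the hypoblast list 9 of 17 genes at the floor were higher where 14 of 19 had been. Whether the 10 barcodes held a pair of cells or single cells was not tested beyond these values.

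**Figure D4:**
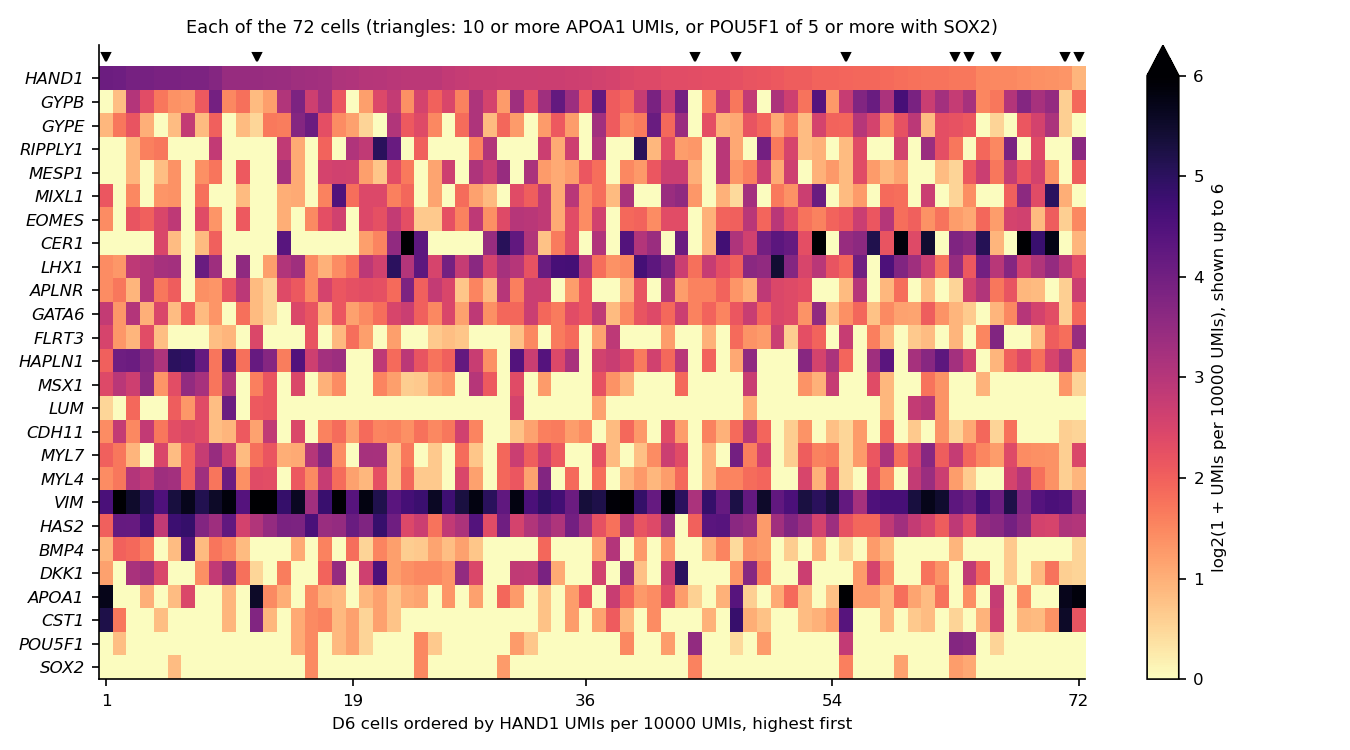
Each of the 72 cells of D6 (x axis, ordered from the highest to the lowest *HAND1* UMIs per 10000 UMIs) and the level of the named genes (y axis) as colour, log2(1 + UMIs per 10000 UMIs), with triangles for the 10 cells with genes of a second lineage. *VIM* was counted in every cell and *HAS2* in 71, while *CER1* was absent from 26 cells and *LUM* was counted in 16.

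The level of *HAND1* in the 72 cells had a median of 5.08 UMIs per 10000 and ranged from 0.899 to 15.8. The cells were divided at the median into 36 cells with more and 36 with less, a division by a gene of the rule that describes the cells and supports nothing about *HAND1*. Of the 10 mixed cells, 2 fell above the median and 8 at or below it. Cells above the median of *HAND1* had higher *HAPLN1*, at 928 against 491 CPM, higher *MSX1*, at 261 against 91.3, and higher *LUM*, at 117 against 48.6. *CDH11* was at 240 against 120 CPM, *HAS2* at 1137 against 734 and *KDR* at 64.8 against 7.77.

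Cells at or below the median had higher *CER1*, at 1470 against 654 CPM, higher *FGF17*, at 336 against 123, and higher *GRP*, the gastrin-releasing peptide, at 163 against 23.0. Of the 313 *CER1* UMIs above the median, 150 came from 1 cell. Of the 84 *GRP* UMIs at or below it, single cells held 19, 13, 11, 11 and 11, so few cells set that level. The cell with 13 and 1 of those with 11 were mixed cells that Scrublet called doublets. *MESP1* was alike, at 219 above the median and 221 below it, as were *EOMES*, at 293 and 278, and *GATA6*, at 280 and 262. *MYL7* was at 316 and 324 CPM, and *COL5A2* at 433 [376, 496] above the median and 515 [455, 581] below it, with intervals that overlapped. Without the 10 mixed cells the *COL5A2* intervals did not overlap, and its level was higher at or below the median. These intervals cover counting error and not the spread between cells, so a difference between the groups of cells was not tested.

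When the 10 mixed cells were left out, 34 and 28 cells remained. *CER1* was then at 727 against 1948 CPM, *MSX1* at 255 against 127 and *HAPLN1* at 920 against 572. *RIPPLY1* is a gene of the rule, so a division by its presence describes the cells and supports nothing. The 41 cells with it had *LHX1* at 989 CPM against 564 in the 31 without, *MESP1* at 264 against 165, *HAPLN1* at 477 against 988, *LUM* at 28.7 against 149 and *MSX1* at 117 against 245.

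**Figure D5:**
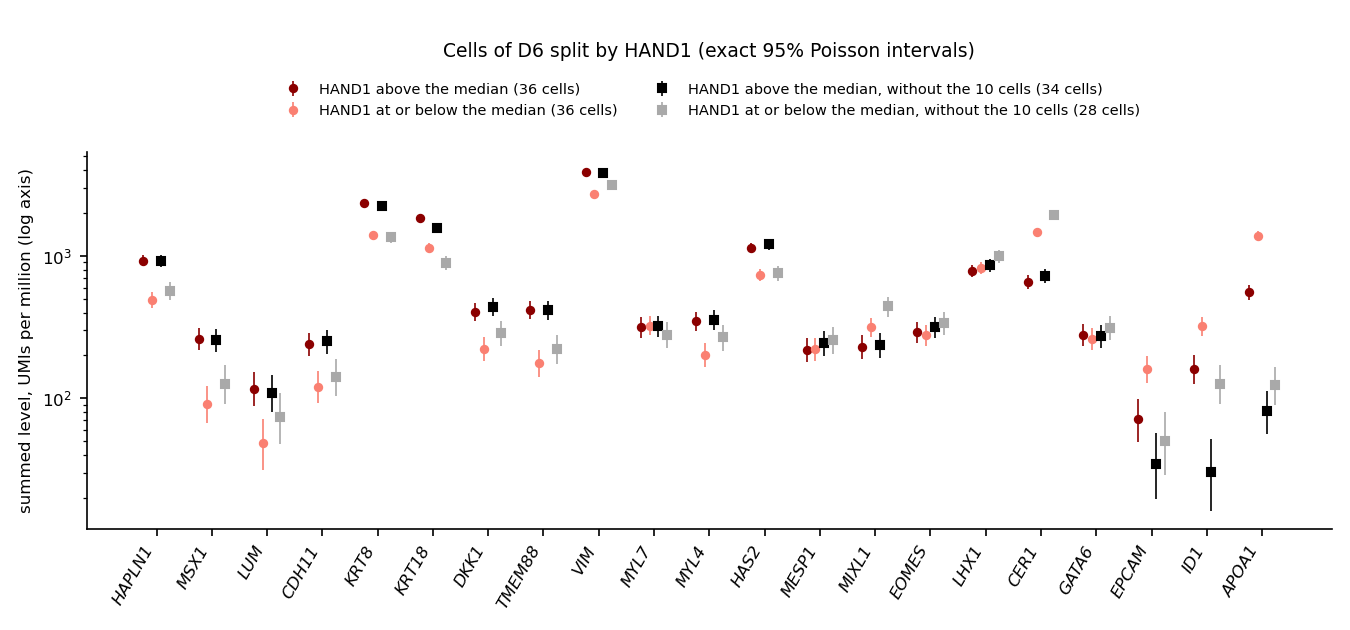
Summed level in CPM (y axis, log scale) of the named genes (x axis) in the 36 cells above and the 36 at or below the median of *HAND1*, with and without the 10 cells that carried genes of a second lineage; bars are exact 95% Poisson intervals. *MSX1* was at 261 against 91.3 CPM and *CER1* at 654 against 1470 above and below the median.

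The 2 cells of D4 had 10007 and 9509 UMIs, and neither was called a doublet. In that order they had 2 and 7 UMIs of *HAND1*, 7 and 7 of *GYPB*, 4 and 6 of *MESP1*, 9 and 11 of *LHX1*, 1 and 4 of *CER1* and 55 and 21 of *VIM*. *HAS2* had 7 and 13, *APLNR* 3 and 8, and *DKK1* 6 and 2 UMIs. *APOA1*, *SOX2* and *EPCAM* were at 0 in both cells. Mesoderm transcripts with *VIM* and without *EPCAM* were thus present in single cells at D4, while 36 cells of that day that passed the glycophorin threshold with no *HAND1* had *CER1* at 2151 CPM, *APOA1* at 832 and *MESP1* at 8.22.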

How the data were processed

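The deposited files are UMI counts of 36601 genes per barcode, which the authors made with Cell Ranger (6.0.1 in the file headers; the submitters' notes also name Seurat 4.0.1, R 4.0.3 and hg38) without normalization. The 7 bisulfite samples were not analysed here. Cells with 3430 to 27500 UMIs and at most 10% mitochondrial UMIs were kept. UMIs were summed over the cells of a group and divided by all UMIs of that group (CPM). Levels have exact Poisson intervals, shares exact Clopper-Pearson intervals and log2 ratios exact conditional binomial intervals, all for counting error only. With 0 UMIs a level was bounded by 3 counts. Genes at 10 CPM or more in either group were compared, and 2-fold differences were counted, since 1 library per day allows no test. Doublets were called by Scrublet in scanpy 1.11.5 and kept, with their removal as an alternative. Named genes were those ranked highest or lowest by the end of the log2 ratio's interval nearest 0, among genes at 50 CPM or more in the higher group, with members of the lists. The cells and the 20 gene lists were chosen with earlier results of these data known. The calculation (Python 3.11.15, numpy 2.4.6, scipy 1.17.1) was tested on simulated data. A few genes are not reported here.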

Additional observations from a re-analysis of the deposited data

How the results depend on the processing

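No paired analysis was possible because each day has 1 library. Of 117 alternative values of shares and counts, 91 stayed close to the value given and 26 moved. The D4 share was 0% at no more than 5% mitochondrial UMIs. With *HAND1* of 2 or more alone the D4 and D6 shares were 0.175% and 1.26% (log2 ratio 2.85). The D6 share was 0.990% with at least 1 UMI on each side of the rule and 0.430% after thinning to 5000 UMIs. Counts of higher and lower genes followed the floor. Against *POU5F1* *SOX2* cells they were 394 and 196 with a floor of 50 CPM, 3584 and 1810 with 1 CPM, and 539 and 345 at 4-fold, and 587 genes were lower with *HAND1* alone. Against *FN1* cells they were 222 and 308, 3560 and 1557, and 288 and 353. Against *HAND1* cells without the other 3 genes they were 240 and 133 at 50 CPM and 1499 and 1440 after thinning. Against *TBXT* cells they were 182 and 206 at 50 CPM, and 1225 genes were higher after thinning. Of 1495 values of named ratios, 5 changed direction and 19 fell inside 2-fold. Without the 10 cells with genes of a second lineage, a division chosen after the data were seen, *CST1* and *CST4* over *POU5F1* *SOX2* cells went from log2 ratios of 2.79 and 2.06 to -0.0226 and -0.0331, and *POU5F1* and *THY1* over *FN1* cells from 1.37 and 1.56 to -0.78 and -0.39. *THY1* was also at -0.39 with at most 20000 UMIs per cell. *APOA1* over *POU5F1* *SOX2* cells went from 3.45 to 0.16 without the 10 cells. *APOA1* and *POU5F1* were used to choose those cells, so their shifts followed in part from the division. *ID1* over *POU5F1* *SOX2* cells was at -0.17 in all cells with *HAND1* of 2 or more, against -2.09. Depth limits genes under 3 UMIs in a group.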

Other observations

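Further values were taken in the 41 cells of D6 that passed the 3-gene threshold without a *HAND1* UMI. They had a median of 10457 UMIs, *GYPE* at 201 CPM, *LHX1* at 450 and *POU5F1* at 157. *VIM* was at 1585 CPM in them, below the 3269 of the 72 cells, and *HAPLN1* at 155 against 702.

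Genes named by their ratio that no list held include *ALPK2*, an alpha kinase, at 137 CPM against 0.201 in *POU5F1* *SOX2* cells, and *FMOD*, fibromodulin, at 52.3 against 0.0401. *PSKH2*, a serine kinase, was at 107 CPM against 0.227, and *ZAP70*, a kinase known from T cell receptor signalling, at 90.6 against 0.267. On the lower side were *NFE2L3*, at 2.01 CPM against 91.8, *PTPRZ1*, at 13.1 against 203, and *SCGB3A2*, at 5.03 against 101.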
